A study of Mus musculus with 3 samples.

Results

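The 9 genes described here encode the core of a growth pathway: the PI3K catalytic subunits Pik3ca and Pik3cb, the kinases Akt1 and Akt2, the AKT phosphatases Phlpp1 and Phlpp2, and Mtor with its partners Rictor and Rptor. They were chosen by name, as the probe sets whose listed gene is one of the 9. This gave 10 of 35556 probe sets and 9 of 19938 genes, with 2 probe sets for Akt2 and 1 for each other gene. None of the 10 probe sets was listed under a further gene.

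The cells were CT26, a mouse colon carcinoma line, grown in medium with 10% fetal bovine serum. All had been transfected with a vector that carries puromycin resistance and GFP, sorted for GFP after puromycin selection, and grown up from single cells. The groups were miR-Ctrl (Ctrl), in which the vector held a control microRNA, miR-17~92Med (Med) with medium levels of the miR-17~92 cluster, and miR-17~92Hi (Hi) with high levels. The design text gives 3 subclones per group, while each group had 1 column of log2 expression values, and the sources used here do not say whether a column is 1 subclone, pooled RNA or a mean. With 1 sample a group there was no replicate error and no test, so "higher" and "lower" describe these columns alone.

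PI3K phosphorylates a membrane lipid when growth factor receptors are active, and the product recruits AKT to the membrane. There AKT is phosphorylated on its activation loop by PDK1 and on its hydrophobic motif by mTOR complex 2, which holds Rictor, and PHLPP phosphatases remove the second mark. AKT relieves the TSC brake on mTOR complex 1, which holds Rptor and drives protein synthesis. Much of this control acts on proteins by phosphorylation, which an mRNA array does not read. The miR-17~92 cluster has been reported to raise PI3K and AKT signalling by repressing phosphatases, and Phlpp2 is among its reported targets.

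The cluster makes 6 guide microRNAs, shown here because their seeds (bases 2 to 8, in capitals) set which mRNAs they can pair with. The sequences are RefSeq's for mouse assembly GRCm38.p6, chromosome 14.
mmu-miR-17-5p: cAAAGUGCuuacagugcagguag
mmu-miR-20a-5p: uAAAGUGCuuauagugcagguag
mmu-miR-18a-5p: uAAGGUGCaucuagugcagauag
mmu-miR-19a-3p: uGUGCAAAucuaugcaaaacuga
mmu-miR-19b-3p: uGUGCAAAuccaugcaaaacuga
mmu-miR-92a-3p: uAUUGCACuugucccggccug
miR-17-5p and miR-20a-5p have the same seed, as have miR-19a-3p and miR-19b-3p, while miR-18a-5p and miR-92a-3p each have their own. Matches to these seeds in the 3′ ends of the 9 mRNAs were not analysed here.

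The Ctrl column stood apart from both others, which bears on every difference from it. Across probe sets Pearson's r was 0.992 for Hi with Med, 0.787 for Med with Ctrl and 0.795 for Hi with Ctrl (probe sets are not independent replicates). The mitochondrially encoded COX2 read 6.00 for Ctrl, 13.40 for Med and 13.31 for Hi. Of 11 housekeeping genes 7 were at least 2-fold higher in Hi than in Ctrl, where 33.5% of all genes past the expression filter were. Ywhaz, also on that list, was lower, at 12.14 for Ctrl, 11.29 for Med and 11.69 for Hi. The median of probe sets was 6.95 for Ctrl, 6.65 for Med and 6.66 for Hi, with interquartile ranges of 2.42 for Ctrl, 3.12 for Med and 3.08 for Hi. Olfactory and vomeronasal receptor genes, used as a gauge of background, had a 95th percentile of 6.87 for Ctrl, 6.17 for Med and 6.20 for Hi. Genes passed the expression filter where their mean over the columns was at least 7.13, the median of genes, and all 9 passed. Of the epithelial markers 4 of 10 passed, and these did not move one way. Krt18 read 7.97 for Ctrl, 11.41 for Med and 12.28 for Hi, while Krt8 read 8.92 for Ctrl, 7.28 for Med and 7.32 for Hi. Cdx1 read 8.95 for Ctrl, 7.24 for Med and 7.45 for Hi, and Krt19 7.50 for Ctrl, 7.50 for Med and 7.87 for Hi. Epcam, which marks colon epithelium, lay below the gauge in each column, at 6.15 for Ctrl, 5.14 for Med and 5.14 for Hi. So did Cdx2, at 6.79 for Ctrl, 5.77 for Med and 5.89 for Hi, and Krt20 and Vil1. Lgals4 did not pass the filter but lay above the gauge in each column, at 7.26 for Ctrl, 6.96 for Med and 6.96 for Hi. Cdh1, which did not pass either, lay below the gauge in Ctrl (6.63) and just above it in Med (6.26) and Hi (6.26). Of the mesenchymal markers 4 of 5 passed, and these did not move one way either. Vim read 11.94 for Ctrl, 13.89 for Med and 13.63 for Hi, and Fn1 8.69 for Ctrl, 13.45 for Med and 13.32 for Hi. Cdh2 read 8.39 for Ctrl, 9.95 for Med and 8.92 for Hi, while Twist1 read 9.09 for Ctrl, 8.34 for Med and 8.34 for Hi. Of other cell types, 1 of 5 leukocyte markers (Cd68), 0 of 4 endothelial markers and 3 of 5 fibroblast or smooth muscle markers passed. All 3 of the last were over 2-fold lower than Ctrl in both columns, with Acta2 at 9.67 for Ctrl, 6.42 for Med and 6.42 for Hi, and differences of Hi from Ctrl of -1.19 for Col1a1 and -1.23 for Col1a2. Cd68 differed by -1.45 between Hi and Med. The part of these cell type markers in the differences given below was not tested.

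Pik3ca encodes p110 alpha, the PI3K catalytic subunit most tied to growth factor receptors. It read 7.18 for Ctrl, 10.36 for Med and 10.25 for Hi. Ctrl was the low column, 0.31 above its gauge, while Med lay 4.18 and Hi 4.05 above theirs. The log2 difference was -0.11 for Hi against Med, 3.18 for Med against Ctrl and 3.07 for Hi against Ctrl, the last being an 8.39-fold higher level in Hi.

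Pik3cb encodes p110 beta, the other widely expressed class I catalytic subunit. It read 8.04 for Ctrl, 9.20 for Med and 8.85 for Hi, so Med was the high column. Hi was lower than Med by 0.35, which was the widest gap among the 9 genes in that comparison, and 11.7% of all genes past the filter were at least as far apart. Against Ctrl the differences were 1.15 in Med and 0.81 in Hi, of which the first is over 2-fold and the second is not.

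Akt1, the broadly expressed AKT kinase, was at 9.69 in Ctrl and at 11.29 in both Med and Hi. The Med and Hi values were identical to the last deposited digit. Both were 3.03-fold higher than Ctrl (1.60 on the log2 scale).

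Akt2, the isoform best known for insulin-stimulated glucose uptake, had 2 probe sets, each listed under Akt2 alone. Probe set 10374364 read 9.43 for Ctrl, 10.11 for Med and 10.32 for Hi. Probe set 10551393 read 7.21 for Ctrl, 8.95 for Med and 9.20 for Hi, with its Ctrl value 0.34 above the gauge. Both put the columns in the order Ctrl, Med, Hi from low to high, and both gave nearly the same difference of Hi against Med, 0.21 and 0.25. They disagreed on the distance from Ctrl, which for Hi was 0.89 in the first and 1.99 in the second, on different sides of 2-fold. Their average was 8.32 for Ctrl, 9.53 for Med and 9.76 for Hi.

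**Figure D1:**
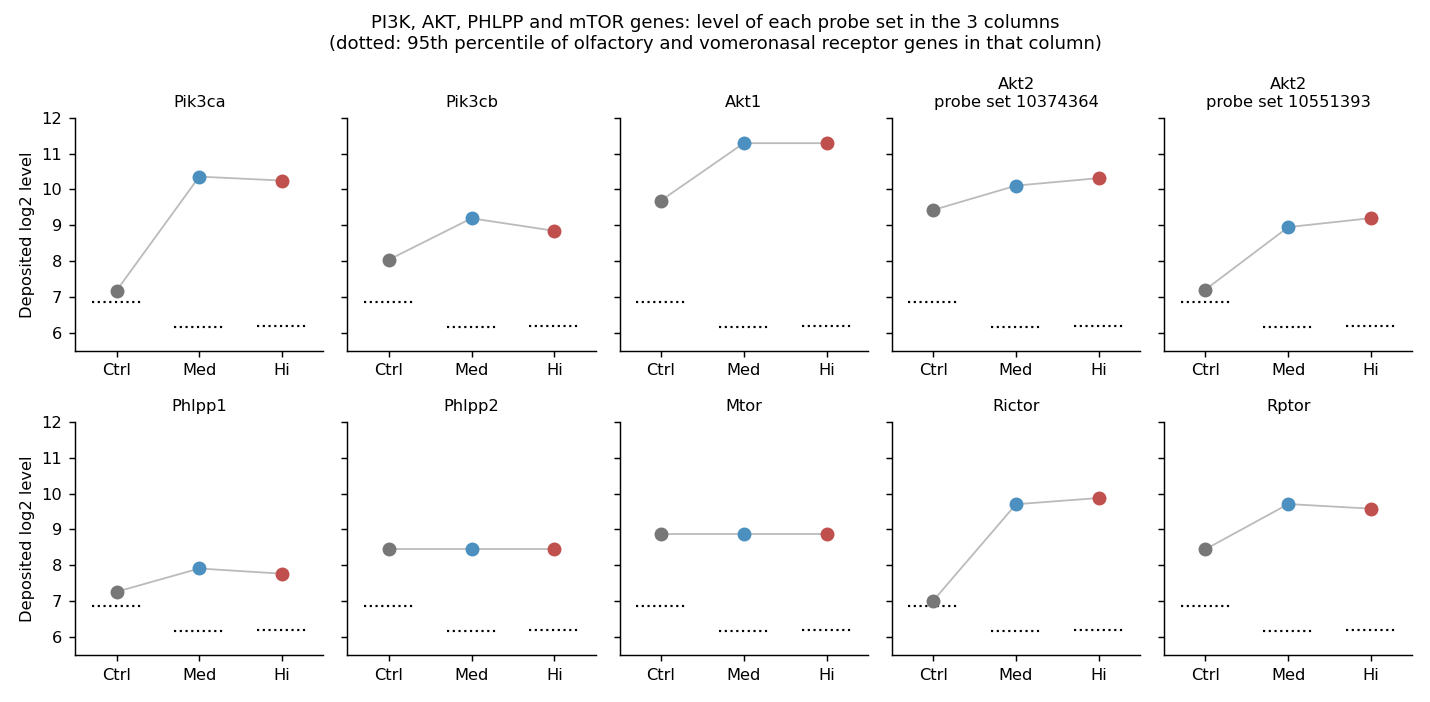
Deposited log2 level (vertical axis) of the 10 probe sets of the 9 genes in Ctrl, Med and Hi, 1 value per column. Dotted marks give the 95th percentile of receptor genes in that column (6.87 for Ctrl, 6.17 for Med and 6.20 for Hi). Phlpp2 and Mtor are level across the columns, Pik3ca and Rictor are near the dotted mark in Ctrl and far above it in Med and Hi, and Med and Hi lie close together in every panel.

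Phlpp1 and Phlpp2 encode the phosphatases that act on the hydrophobic motif of AKT. Phlpp1 read 7.26 for Ctrl, 7.91 for Med and 7.76 for Hi, 0.39 above the gauge in Ctrl and 1.57 above it in Hi. Hi was lower than Med by 0.15 and higher than Ctrl by 0.50, a difference that 62.3% of genes past the filter reached or exceeded in size. Phlpp2, the reported target, read 8.46 for Ctrl, 8.46 for Med and 8.46 for Hi, identical in every deposited digit. The table thus records no lower Phlpp2 level in the columns with the cluster. With columns centred on all probe sets its difference of Hi from Ctrl is 0.29, and with quantile normalization -0.59, so no direction is settled.

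Mtor, the kinase of both mTOR complexes, was at 8.88 in all 3 columns, again identical to the last digit. Its difference of Hi from Ctrl likewise turned with the scaling, 0.29 when columns were centred on all probe sets and -0.76 with quantile normalization. Of genes past the filter, 10.5% were identical in all 3 columns, and the 9 genes held 2 such genes.

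Rictor, the scaffold that defines mTOR complex 2, read 7.01 for Ctrl, 9.70 for Med and 9.87 for Hi. Its Ctrl value lay 0.14 above the gauge, the nearest of the 10 probe sets, so the size of the distance from Ctrl is uncertain. The differences were 0.17 for Hi against Med, 2.69 for Med against Ctrl and 2.86 for Hi against Ctrl. Rptor, the scaffold that presents substrates to mTOR complex 1, read 8.45 for Ctrl, 9.71 for Med and 9.58 for Hi. Hi differed from Med by -0.13 and was 2.19-fold higher than Ctrl (1.13 on the log2 scale).

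The promoter windows of 4 genes are shown because these genes lie at both ends of the comparison with Ctrl: Pik3ca and Rictor were furthest from it, and Phlpp2 and Mtor were identical to it. Each window runs from 250 bases before to 50 after a RefSeq start on GRCm38.p6, 5′ to 3′ on the gene's strand. Capitals mark the GC box, searched as GGGCGG, and the box named for its letters CCAAT, each on either strand.
Pik3ca, chr3:32396815-32397114 (+ strand): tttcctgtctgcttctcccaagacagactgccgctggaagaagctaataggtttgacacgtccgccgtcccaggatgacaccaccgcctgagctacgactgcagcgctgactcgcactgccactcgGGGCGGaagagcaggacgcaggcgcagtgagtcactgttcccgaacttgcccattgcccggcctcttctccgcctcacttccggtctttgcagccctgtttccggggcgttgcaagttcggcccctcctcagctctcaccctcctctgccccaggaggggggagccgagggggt
Rictor, chr15:6708131-6708430 (+ strand): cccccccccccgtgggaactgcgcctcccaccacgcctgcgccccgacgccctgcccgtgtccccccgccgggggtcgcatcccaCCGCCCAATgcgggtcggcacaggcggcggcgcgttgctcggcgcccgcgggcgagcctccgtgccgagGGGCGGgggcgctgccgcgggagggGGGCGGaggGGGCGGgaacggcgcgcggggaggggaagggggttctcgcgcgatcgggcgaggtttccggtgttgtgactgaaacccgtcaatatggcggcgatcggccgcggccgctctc
Phlpp2, chr8:109868353-109868652 (+ strand): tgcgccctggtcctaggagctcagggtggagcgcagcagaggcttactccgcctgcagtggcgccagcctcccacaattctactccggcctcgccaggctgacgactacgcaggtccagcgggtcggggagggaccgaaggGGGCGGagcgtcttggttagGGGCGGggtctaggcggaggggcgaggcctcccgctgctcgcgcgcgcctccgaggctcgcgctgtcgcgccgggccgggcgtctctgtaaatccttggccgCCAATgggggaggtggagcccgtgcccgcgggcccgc
Mtor, chr4:148448332-148448631 (+ strand): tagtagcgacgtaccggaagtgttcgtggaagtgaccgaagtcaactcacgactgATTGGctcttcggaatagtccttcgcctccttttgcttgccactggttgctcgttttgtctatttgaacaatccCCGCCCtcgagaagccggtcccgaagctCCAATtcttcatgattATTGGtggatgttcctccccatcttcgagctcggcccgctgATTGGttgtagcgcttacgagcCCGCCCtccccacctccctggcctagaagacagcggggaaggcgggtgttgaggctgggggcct
The Rictor window holds 4 GC boxes and 1 CCAAT box, which overlaps a GC box, at 78.3% G and C. Pik3ca has 1 GC box at 63.3%, Phlpp2 has 2 GC boxes and 1 CCAAT box at 72.7%, and Mtor has 2 GC boxes and 4 CCAAT boxes at 56.7%. The median over 32851 windows was 52.7%. All 9 genes had a window, and Akt1 and Akt2 had several, so windows of 1 gene are not independent. Of the 13 windows of the 9 genes, 8 held a GC box, where 35.7% of all windows did, and 5 held a CCAAT box, where 37.4% did. The forkhead letters GTAAACA stood in 1, an Akt1 window, against 3.65%. The E-box CACGTG, the CRE TGACGTCA, the TATA box TATAAA and the E2F letters TTTCGCGC, searched on both strands, were found in 0 of 13, against 7.15%, 1.79%, 13.6% and 0.323% of all windows. GC boxes thus stood in genes at both ends of the comparison with Ctrl, and a match describes letters only.

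The comparison of Hi with Med asks what a higher level of the cluster goes with, and Ctrl is not subtracted in it. Ctrl still enters the filter, which uses the mean over the columns. Whether Ctrl also bears on the deposited Hi and Med values, through a joint normalization, was not tested. None of the 9 genes was 2-fold apart (0 of 9), where 1.54% of the 9969 genes past the filter were (0.682% higher and 0.863% lower). Pik3ca, Pik3cb, Phlpp1 and Rptor were lower in Hi, by 0.11 to 0.35, where 31.3% of all genes were lower by any amount. Akt2 and Rictor were higher in Hi, by 0.23 and 0.17, where 22.8% of all genes were higher. Akt1, Phlpp2 and Mtor were identical, as were 45.9% of all genes. The median over the 9 genes was 0, as over all genes. The central 90% of genes past the filter ran from -0.48 to 0.27, and all 9 genes lay inside. The SD of this difference over 1190 receptor genes was 0.09, a gauge of spread at background levels and not a replicate error.

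**Figure D2:**
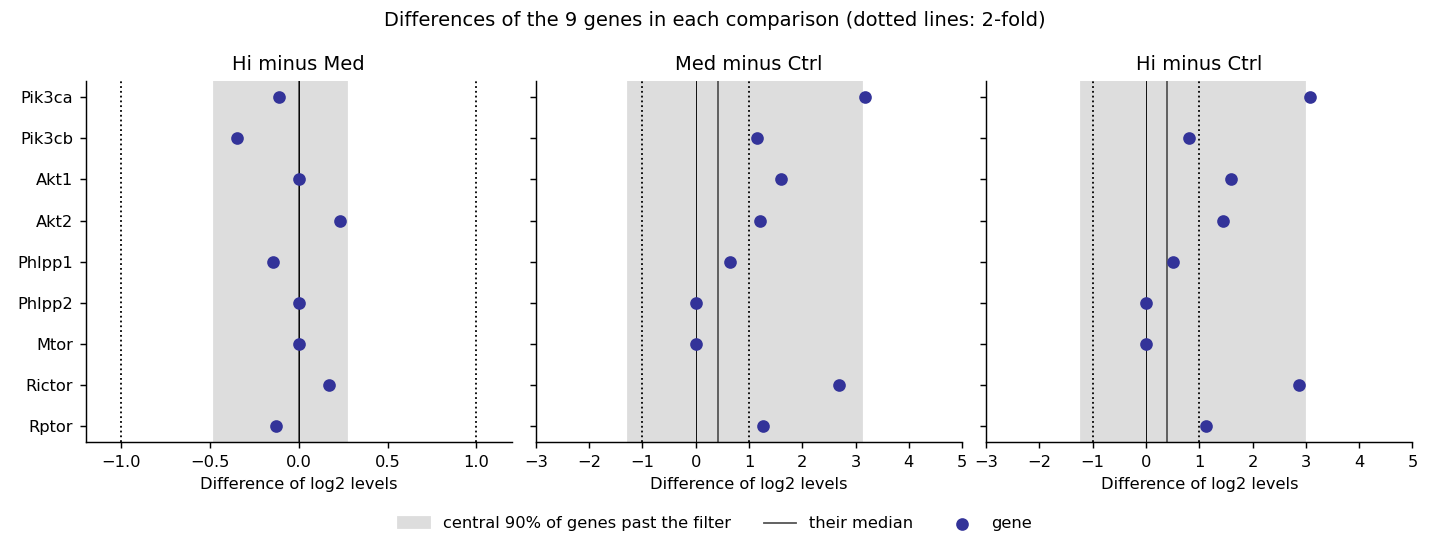
Differences of log2 levels (horizontal axis) of the 9 genes for Hi minus Med, Med minus Ctrl and Hi minus Ctrl, with the central 90% of the 9969 genes past the filter in grey and their median as a grey line. In Hi minus Med all 9 points lie inside the grey band, and in both comparisons with Ctrl only Pik3ca lies beyond it.

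Against Ctrl, 6 of the 9 genes were at least 2-fold higher in Med and none was lower, where 34.9% of all genes were higher and 8.7% lower, together 43.6%. These were Pik3ca, Pik3cb, Akt1, Akt2, Rictor and Rptor. In Hi, 5 of 9 were higher and none lower, where 33.5% of all genes were higher and 8.4% lower, together 41.8%. Both comparisons share the Ctrl column. The median over the 9 genes was 1.21 in Med and 1.13 in Hi, against 0.42 in Med and 0.39 in Hi over all genes past the filter. Differences as large as that of Pik3ca were held by 4.69% of genes in Med and 4.55% in Hi, and as large as that of Rictor by 8.18% in Med and 5.94% in Hi. The mitochondrial and housekeeping mRNAs that were low in Ctrl move with these differences, and their part in them was not tested.

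The counts depended on how the columns were put on one scale. With quantile normalization 2 of 9 genes were 2-fold higher than Ctrl in Med, where 24.9% of all genes were, and 2 of 9 in Hi, where 24.6% were. Pik3ca and Rictor were the genes 2-fold higher than Ctrl under each of the 8 alternatives tried, with Hi against Ctrl between 2.24 and 3.36 for Pik3ca and between 2.25 and 3.15 for Rictor. Of these alternatives, only the changes of scale could alter the differences of Pik3ca and Rictor. For Akt1 the same difference ran between 0.15 and 1.89, for Rptor between 0.31 and 1.42, for Akt2 between 0.69 and 1.73, and for Pik3cb between 0.27 and 1.09. Phlpp1 turned sign, between -0.04 and 0.79. Centring on all probe sets moved the median difference of Hi from Ctrl over genes past the filter by 0.29, quantile normalization by -0.47 and cyclic loess by -0.27.

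**Figure D3:**
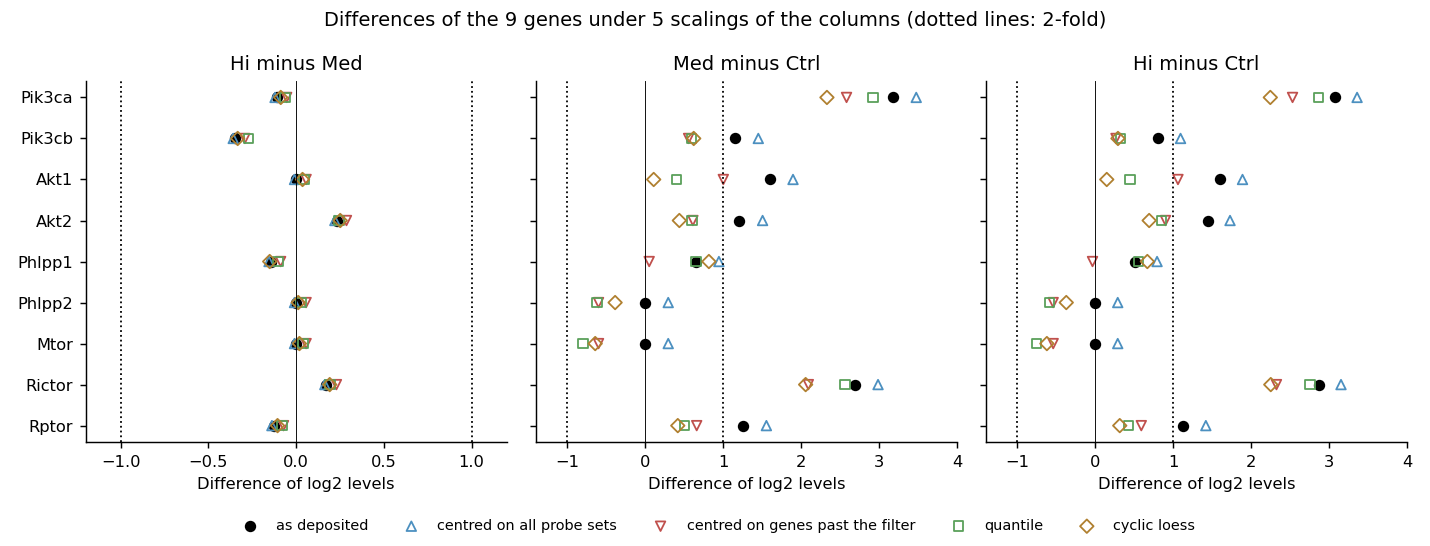
Differences of log2 levels (horizontal axis) of the 9 genes under 5 scalings of the columns, for Hi minus Med, Med minus Ctrl and Hi minus Ctrl. Pik3ca and Rictor stay to the right of the 2-fold line against Ctrl under all 5, Phlpp2 and Mtor fall on both sides of 0, and Hi minus Med hardly moves.

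The order of the columns differed among the 9 genes. Ctrl was lowest and Med highest in Pik3ca, Pik3cb, Phlpp1 and Rptor, an order held by 25.5% of genes past the filter. Ctrl was lowest, Med between and Hi highest in Akt2 and Rictor, as in 13.2% of genes. Akt1 was low in Ctrl and identical in Med and Hi, as were 22.3% of genes. The genes whose levels lay nearest to those of Pik3cb, by Euclidean distance over the 3 columns, were Specc1l at 0.0171, Nsd2 at 0.112 and Ostm1 at 0.133. With 3 columns such nearness is a description only.

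Of 177 other genes of the pathway, set out in 13 lists, 138 passed the filter. In Hi against Med 1 was 2-fold higher, 1 was 2-fold lower and 67 were identical. Over all genes past the filter 31.3% were lower by any amount, 45.9% identical and 22.8% higher, and the list counts given below stand beside these shares. The 2 genes past 2-fold were receptors that recruit PI3K. Egfr, the EGF receptor, read 7.58 for Ctrl, 8.23 for Med and 9.48 for Hi, a difference of 1.25 between Hi and Med. Fgfr1, an FGF receptor, read 7.96 for Ctrl, 11.36 for Med and 10.20 for Hi, a difference of -1.16. Of the other receptors, Pdgfra differed by 0.49 between Hi and Med and Erbb3 by -0.57. In this list of 8 past the filter, 2 were higher, 4 lower and 2 identical.

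Among PI3K subunits the 6 catalytic genes past the filter were split in Hi against Med, with 2 higher and 4 lower and a median of -0.06. Pik3cd, the catalytic subunit typical of leukocytes, read 8.30 for Ctrl, 7.12 for Med and 7.27 for Hi, and was, among pathway genes past the filter, the one 2-fold lower than Ctrl in Med and in Hi. Its standing alone rests on the filter, which it passed on its mean with a Med value under the 7.13 level. Without the filter 16 pathway genes were 2-fold lower than Ctrl in Med and 15 in Hi. The class II enzyme Pik3c2a read 7.56 for Ctrl, 8.77 for Med and 8.53 for Hi. Of 8 regulatory and adaptor genes, 4 were identical between Hi and Med. Irs1, the adaptor of insulin and IGF receptors, read 6.92 for Ctrl, 8.17 for Med and 7.78 for Hi, and Pik3r1, the main regulatory subunit, read 6.99 for Ctrl, 8.09 for Med and 8.12 for Hi. Of 10 inositol lipid phosphatases 7 were identical between Hi and Med, and Synj2 was lower in Hi by 0.84 (7.94 for Ctrl, 9.40 for Med and 8.57 for Hi).

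Among AKT kinases and their relatives 5 of 7 genes, Akt1 and Akt2 among them, were 2-fold higher than Ctrl in Hi and none lower, where 33.5% of all genes were higher and 8.4% lower. The others included Pkn2 (7.58 for Ctrl, 10.52 for Med and 10.25 for Hi) and Prkca, a protein kinase C (7.44 for Ctrl, 9.57 for Med and 9.52 for Hi). Sgk1, a kinase related to AKT, was lower than Ctrl by 0.59 in both. The 5 of 7 was the highest share among the 13 lists. In Hi the receptor list had 5 of 8 genes 2-fold higher than Ctrl. The lipid phosphatases had 1 of 10, the AKT phosphatases 2 of 12, and RAG GTPases and amino acid sensing 4 of 25. With quantile normalization Akt1 was 0.45 and Akt2 0.85 above Ctrl in Hi, both under 2-fold. The phosphatase list, with Phlpp1, Phlpp2 and subunits of PP2A, had 12 genes past the filter, of which 7 were lower in Hi than in Med, 5 identical and 0 higher, where 31.3% of all genes were lower, 45.9% identical and 22.8% higher. These differences were small, from -0.15 for Phlpp1 to -0.0030 for Ppp2r5c, with a median of -0.01. Only Phlpp1 and Ppp2r5a (-0.11) exceeded in size the 0.09 SD over receptor genes. The 0 higher holds for the deposited scale. For Phlpp2, Hi minus Med became 0.03 with quantile normalization, 0.01 with cyclic loess and 0.06 with columns centred on genes past the filter. Centring on all probe sets gave -0.01. Phlpp1 remained negative under each scaling, between -0.15 and -0.09. Rescaled values of the PP2A genes are not given here. Ppp2r1a, the PP2A scaffold, read 8.93 for Ctrl, 12.51 for Med and 12.45 for Hi. Among AKT partners Trib1 differed by 0.86 between Hi and Med and the chaperone partner Fkbp5 by -0.62, and the chaperone Hsp90aa1 read 9.14 for Ctrl, 12.72 for Med and 12.86 for Hi. Of 12 AKT substrates 7 were identical between Hi and Med. Mdm2, which restrains p53, read 6.76 for Ctrl, 9.02 for Med and 8.45 for Hi, and the pro-apoptotic Bad read 8.48 for Ctrl, 7.57 for Med and 7.63 for Hi. The Ctrl value of Mdm2 lay below the gauge of 6.87.

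Around mTOR, 6 of 10 complex genes were identical between Hi and Med. Deptor, an inhibitor found in both complexes, read 7.99 for Ctrl, 9.69 for Med and 10.45 for Hi, and its difference of 0.76 between Hi and Med was larger than that of Rictor or Rptor. Of 14 genes of the TSC complex, RHEB and their inputs, 10 were identical, and the AMPK subunit Prkag1 read 6.71 for Ctrl, 10.61 for Med and 10.81 for Hi. The Ctrl value of Prkag1 lay below the gauge of 6.87, so the size of its distance from Ctrl is uncertain. Of 25 genes of RAG GTPases and amino acid sensing 5 were higher, 10 lower and 10 identical, with Sesn2, a leucine sensor, lower in Hi than in Med by 0.55. Of 17 substrates and translation effectors 5 were higher and 5 lower. Eif4ebp1, a repressor of translation that mTOR complex 1 inactivates, read 9.43 for Ctrl, 10.39 for Med and 9.95 for Hi. Pdcd4, another translation repressor, read 7.16 for Ctrl, 9.09 for Med and 9.45 for Hi. Among 15 genes that respond to FOXO factors, 4 were higher, 5 lower and 6 identical. Gadd45a was lower in Hi than in Med by 0.98 (10.23 for Ctrl, 11.21 for Med and 10.23 for Hi), Cat, the catalase, was lower by 0.64, and Cited2 was higher by 0.50.

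**Figure D4:**
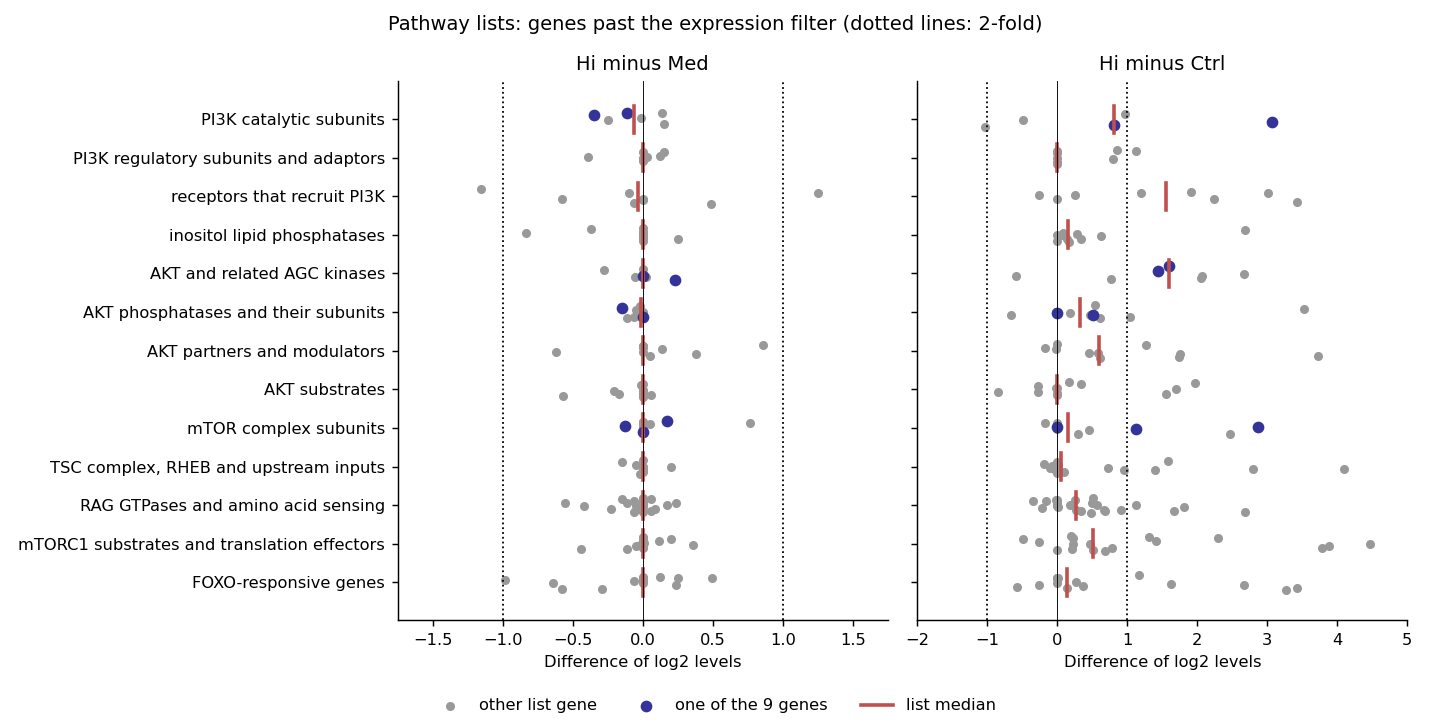
Differences of log2 levels (horizontal axis) for genes past the expression filter in the 13 pathway lists, Hi minus Med on the left and Hi minus Ctrl on the right, with the 9 genes in blue and list medians as red bars. On the left Egfr (1.25) and Fgfr1 (-1.16) lie beyond the dotted 2-fold lines, and on the right most lists spread towards higher values in Hi.

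Against Ctrl, 40 of the 138 other pathway genes were 2-fold higher in Med and 1 lower, and 38 were higher in Hi and 1 lower. Over all genes past the filter, the Med shares were 34.9% higher and 8.7% lower, and the Hi shares 33.5% higher and 8.4% lower. The lower counts depend on the scaling. With quantile normalization and the filter kept they were 12 in Med and 11 in Hi, where 18.8% and 17.9% of all genes were lower. They also depend on the filter, which leaves out genes with low means. Without it, Med had 40 of 169 pathway genes 2-fold above Ctrl and 16 below it, where 18.3% of all 19938 genes were above and 16.3% below. Hi had 38 above and 15 below, where 17.5% of all genes were above and 15.4% below. With the filter, the pathway medians were 0.32 in Med and 0.29 in Hi, below the 0.42 in Med and 0.39 in Hi of all genes.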

How the data were processed

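RNA from 3 groups of CT26 cells was hybridized to Affymetrix arrays after amplification of 100 ng of total RNA with random primers, per the labels' protocols. The deposited table holds 1 column of normalized values per group; they were taken as log2 from their range of 2.13 to 14.8. Affymetrix Expression Console and GCRMA are named, with no role or version, per the submitters' processing notes. Array number limits the precision, and no error could be computed.

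Gene names came from GEO's platform annotation, updated by gene number to RefSeq's GRCm38.p6 table (21698 of 21789 single-gene probe sets matched). 1621 probe sets listed several genes and 12146 none. Probe sets of 1 gene were averaged into 19938 genes, and 9969 passed the filter. A log2 difference of 1 or more counted as 2-fold. No test was run. Counting was tested on simulated data. Alternatives were centring, quantile and cyclic loess scaling (limma 3.58.1), other filters and other probe set rules; centring on genes past the filter was added after seeing the data. Genes named from the pathway lists were drawn from the 2 highest and 2 lowest of each list for Hi against Med and for Hi against Ctrl. Not all of these are named in the text. Ppp2r5c is named outside this rule, as the smallest nonzero difference of its list. The 3 genes nearest to the member furthest apart in Hi against Med were also named. Marker genes were picked after their values were seen. The 9 genes and the lists were chosen with earlier results of these data known. List genes with no single-gene probe set are not analysed here.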

Additional observations from a re-analysis of the deposited data

How the results depend on the processing

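Of 48 recomputed counts of genes 2-fold apart in either direction, 42 stayed within 1.5 times the value given and 6 did not. Those 6 all concern the 9 genes against Ctrl, where 6 were 2-fold apart in Med and 5 in Hi. With quantile normalization the number was 2 in Med and 2 in Hi, with cyclic loess 2 in Med and 2 in Hi, and with columns centred on genes past the filter 3 in Med and 3 in Hi. The cause was not tested. In Hi against Med 0 of 9 genes were 2-fold apart under each of the 8 alternatives, and the other pathway genes numbered 2 under each. Of 216 recomputed differences of single genes, 194 stayed on their side of 2-fold, 22 did not, and none that was over 2-fold turned sign. Many of the 194 were fixed in advance. Other filters and the averaging in of shared probe sets could not alter a difference of the 9 genes. The highest probe set rule could alter Akt2 alone, so only the changes of scale tested the other genes. Where Akt2 was read from its higher probe set alone, its difference from Ctrl fell under 2-fold, at 0.68 in Med and 0.89 in Hi. Of 96 counts split by direction, 20 moved by more, all in comparisons with Ctrl. Pathway genes 2-fold lower than Ctrl numbered 1 in Med and 1 in Hi as deposited. In the same order, Med then Hi, they numbered 12 and 11 with quantile normalization, 7 and 7 with cyclic loess or centring on genes past the filter, 16 and 15 with no filter, 2 and 2 with the highest probe set, and 0 and 0 with centring on all probe sets or the 60th percentile filter. No paired analysis was possible because each group had 1 column. Values of Pik3ca, Rictor, Phlpp1 and the lower Akt2 probe set in Ctrl lay within 0.40 of the background gauge, which limits how far their distance from Ctrl can be read. The same limit holds for the pathway genes Irs1, Pik3r1 and Pdcd4, close above the gauge in Ctrl, and for Prkag1 and Mdm2, below it.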

Other observations

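Identical values were common in the table. Of 35556 probe sets, 2815 (7.92%) were identical in all 3 columns and 15551 (43.7%) in Hi and Med, while 3276 (9.21%) were identical in Hi and Ctrl. The sources used here do not name the step that gives identical values, so an identical value of Mtor, Phlpp2 or Akt1 says that the table records no difference and does not measure how small a difference was. Both probe sets of Akt2 differed between Hi and Med, by 0.21 and 0.25, and put the columns in the same order.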
